A study of Mus musculus with 15 samples.

Results

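Amy1, Bpifa2, Smr3a and Chia1, 4 genes for secreted proteins that mouse parotid gland is known to make in bulk, were followed across 15 libraries of submandibular gland RNA. They were taken by gene symbol from the authors' count table, which has rows for 55401 genes, and all 4 were among the 18136 genes that passed the filter on low counts. Their levels in these libraries were known when they were picked, so the levels and their correlations stand as descriptions with no test. The control group held 5 libraries from untreated ICR mice, an outbred stock. The model group held 5 from untreated NOD/LTJ mice, a strain known for immune cells entering its salivary glands, and the SJQYD group held 5 from mice of that strain treated with SJQYD, for which the labels give no fuller name. All mice were wild type by genotype label, and the study's title names Sjögren's syndrome. Strain and group therefore cannot be told apart between control and the other two. The labels give neither the age, sex, time of day nor dose, and do not say whether each library came from a separate mouse, so the p-values measure the spread between libraries.

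The parotid gland lies beside the submandibular gland and secretes a watery, protein-rich saliva from serous acinar cells. Amy1 encodes salivary amylase, which starts the digestion of starch, and Bpifa2 encodes parotid secretory protein, a lipid-binding protein of the BPI fold family. Chia1 encodes acidic chitinase, which cleaves chitin, and Smr3a encodes a small secreted protein of the family first described as androgen-regulated in the submaxillary gland, another name for the submandibular gland.

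The 4 genes lie at 4 separate places on 3 chromosomes in GRCm38. Smr3a (ENSMUSG00000029280) lies at chr5:88002549-88008534 on the plus strand and Bpifa2 (ENSMUSG00000042459) at chr2:154008265-154016079 on the plus strand. Chia1 (ENSMUSG00000062778) lies at chr3:106113229-106132120 on the plus strand, and Amy1 (ENSMUSG00000074264) at chr3:113555710-113577830 on the minus strand, 7424 kb beyond the end of Chia1. The 300 bases from 250 before to 50 after each RefSeq start are printed 5′ to 3′ on the gene's own strand, because genes that move together may be compared at their promoters. Amy1 has 2 starts in RefSeq, 2988 bases apart, and capitals mark each TATAA, the core of the TATA box. In order, the windows are chr3:113577701-113578000 and chr3:113574713-113575012 on the minus strand, then chr2:154008026-154008325, chr5:88002275-88002574 and chr3:106113132-106113431 on the plus strand (GRCm38.p6).
Amy1, first start: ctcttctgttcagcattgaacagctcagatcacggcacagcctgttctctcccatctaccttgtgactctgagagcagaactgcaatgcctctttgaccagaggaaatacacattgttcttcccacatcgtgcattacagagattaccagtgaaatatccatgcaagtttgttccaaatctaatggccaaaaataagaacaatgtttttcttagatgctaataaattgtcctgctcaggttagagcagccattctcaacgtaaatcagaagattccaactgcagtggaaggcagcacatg
Amy1, second start: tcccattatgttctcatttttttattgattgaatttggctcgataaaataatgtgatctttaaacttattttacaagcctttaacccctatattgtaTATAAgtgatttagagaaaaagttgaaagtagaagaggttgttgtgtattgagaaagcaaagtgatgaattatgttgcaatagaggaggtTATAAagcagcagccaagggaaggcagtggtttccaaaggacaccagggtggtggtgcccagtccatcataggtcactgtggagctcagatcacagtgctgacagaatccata
Bpifa2: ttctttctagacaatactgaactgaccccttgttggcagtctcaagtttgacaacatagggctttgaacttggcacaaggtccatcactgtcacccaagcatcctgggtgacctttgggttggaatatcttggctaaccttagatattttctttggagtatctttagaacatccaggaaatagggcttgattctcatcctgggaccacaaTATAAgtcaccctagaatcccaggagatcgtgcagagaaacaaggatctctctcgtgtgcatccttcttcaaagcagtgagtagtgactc
Smr3a: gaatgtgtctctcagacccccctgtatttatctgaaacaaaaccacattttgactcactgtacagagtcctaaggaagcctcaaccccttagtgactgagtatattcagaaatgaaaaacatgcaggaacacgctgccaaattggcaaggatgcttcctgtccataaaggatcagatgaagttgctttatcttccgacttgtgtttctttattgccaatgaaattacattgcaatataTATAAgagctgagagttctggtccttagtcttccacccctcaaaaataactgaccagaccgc
Chia1: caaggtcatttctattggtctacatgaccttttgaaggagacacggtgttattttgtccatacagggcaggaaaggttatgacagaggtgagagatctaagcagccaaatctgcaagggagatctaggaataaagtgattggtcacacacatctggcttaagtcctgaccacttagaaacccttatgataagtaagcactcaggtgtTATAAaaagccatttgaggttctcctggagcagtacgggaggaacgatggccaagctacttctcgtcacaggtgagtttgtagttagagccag

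TATAA on the sense strand was found in every printed window except that of the first Amy1 start. Of the 32851 single promoter windows in the RefSeq table, 17.5% held it at any position. In Bpifa2 it began 40 bases before the start, in Chia1 43 bases before and in Smr3a 12 bases before. The first start of Amy1 had no match, and the second had 2, the nearer one 63 bases before the start. TATAA was searched on the sense strand only. The E box CANNTG, whose pattern reads the same on both strands, occurred 4 times in Chia1, once in Smr3a, 2 times at the first start of Amy1, and at neither the second start of Amy1 nor Bpifa2. It is a short motif, present in 72.3% of all promoters. The forms CAGCTG and CATATG, which are subsets of CANNTG and are found in 16.3% and 3.91% of promoters, were in none of the 5 windows. These matches describe letters only.

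Total counts ran from 39510018 to 68694263 per library, and 3 counts, taken as the floor, came to 0.0290 to 0.0840 CPM, the normalised read count scaled to library sizes adjusted by the trimmed mean of M values (TMM). The TMM factors ran from 0.594 to 1.85. Mucl2, a mucin-like product of the submandibular gland, held 15.5% to 53.8% of each library's counts, so the labelled tissue was present in all 15. Xist was at 1.01 CPM in SJQYD 3 and at 162 to 270.2 CPM elsewhere.

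The 4 genes were high in the same few libraries and low in the others. Together they took 16.0% of all counts in model 3, 6.50% in SJQYD 1, 4.17% in control 2, 2.11% in model 1 and 0.623% in control 1, and 0.000679% in SJQYD 5. The Wilson 95% intervals of these shares were at most 0.0186 percentage points wide. They treat each count as an independent draw, which these counts are not known to be, so they may be too narrow. The spread between libraries is not in them. From the lowest to the highest library the level rose 6907-fold for Amy1, 25972-fold for Bpifa2, 25054-fold for Smr3a and 24109-fold for Chia1. In bulk tissue, fewer cells of a type and less RNA per cell cannot be told apart.

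Amy1, the amylase, stood in libraries 1 to 5 at 1348, 4410.3, 20.3, 40.0 and 48.3 CPM in the control group. In the model group it stood at 2443, 213, 20269.7, 30.0 and 32.1 CPM, and in the SJQYD group at 5821, 78.7, 223, 3.74 and 2.93 CPM. Each group thus held libraries far above and far below its mean, and the groups overlapped. The means were 1173 ± 1897 CPM in control, 4598 ± 8820 in model and 1226 ± 2570 in SJQYD (SD, n = 5 each), so each SD exceeded its mean.

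Bpifa2, the parotid secretory protein, stood at 5276, 22868, 42.8, 3389 and 116 CPM in control libraries 1 to 5. It stood at 6429, 659, 53990.2, 108 and 87.8 CPM in the model libraries and at 14864, 114, 941, 6.74 and 2.08 CPM in the SJQYD libraries. The same libraries were high as for Amy1, with 1 exception: control 4 was low for the other 3 genes and high for Bpifa2. Its means were 6339 ± 9506, 12255 ± 23483 and 3186 ± 6540 CPM (SD, n = 5 each) in control, model and SJQYD.

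Smr3a stood at 1657, 8076, 13.2, 55.9 and 59.9 CPM in control libraries 1 to 5. In the model group it stood at 4015, 460.4, 29323, 46.6 and 45.7 CPM, and in the SJQYD group at 7139.9, 112, 459, 3.53 and 1.17 CPM. The 67 counts of Smr3a in SJQYD 5 and the 2103760 in model 3 show that the gene was above the floor at both ends of the range. Its means were 1973 ± 3483, 6778 ± 12713 and 1543 ± 3134 CPM (SD, n = 5 each) in control, model and SJQYD.

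Chia1, the chitinase, stood at 2202, 5821, 10.7, 49.0 and 50.6 CPM in control libraries 1 to 5. It stood at 3113, 349.8, 29060.0, 38.2 and 40.3 CPM in the model libraries and at 7274, 56.3, 726, 3.30 and 1.21 CPM in the SJQYD libraries. Chia1 ranked the 15 libraries in exactly the order that Amy1 did. Its means were 1627 ± 2525, 6520 ± 12666 and 1612 ± 3180 CPM (SD, n = 5 each) in control, model and SJQYD.

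**Figure D1:**
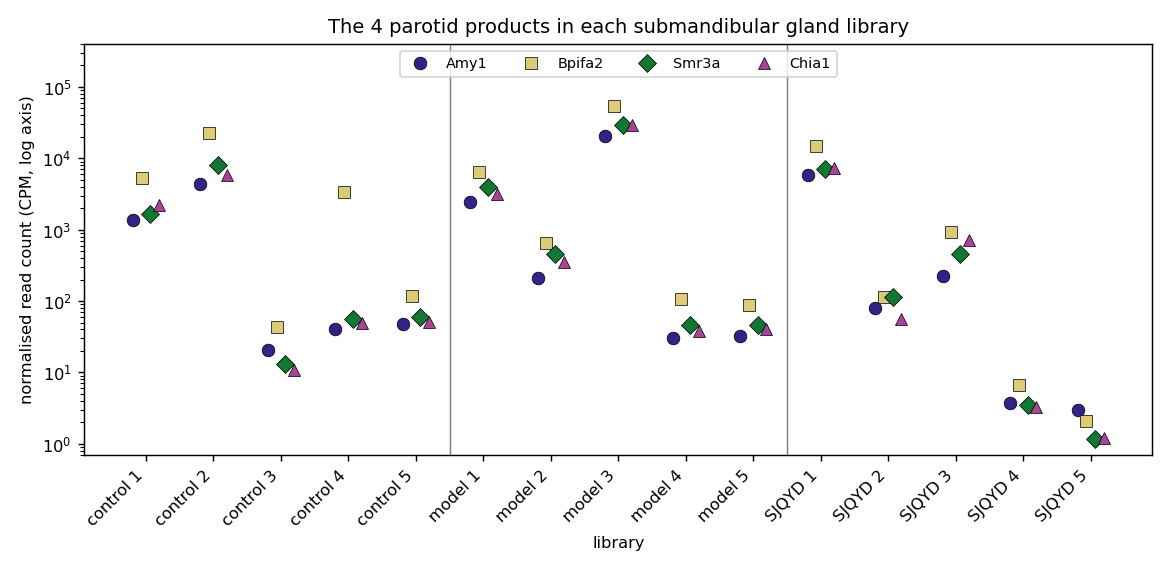
CPM (log axis) of Amy1, Bpifa2, Smr3a and Chia1 in each of the 15 libraries, grouped as control, model and SJQYD. Model 3, SJQYD 1 and control 2 are the highest of their groups for every gene, SJQYD 4 and 5 are the lowest of all, and control 4 is raised for Bpifa2 alone.

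None of the 4 genes passed the edgeR quasi-likelihood test at a Benjamini-Hochberg adjusted p under 0.05 in any comparison, and none had an unadjusted p under 0.05. Of the 18136 genes tested, 5.07% were called for model against control, 2.75% for SJQYD against model and 11.1% for SJQYD against control. In the same order, 3968, 2936 and 4828 of the 18136 had an unadjusted p under 0.05. The groups overlapped for all 4 genes in each comparison, and the share of all genes with such overlap was not counted. For model against control the log2 fold change was 1.97 ± 2.29 (SE) for Amy1, 0.95 ± 2.25 for Bpifa2, 1.78 ± 2.33 for Smr3a and 2.00 ± 2.37 for Chia1, with edgeR adjusted p from 0.671 to 0.851. The 95% interval for Amy1 ran from -2.99 to 6.93, so the data allow a large difference in either direction. The median of the 4 values was 1.88, beside 0.03 over all genes.

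For SJQYD against model the values were -1.91 ± 2.28 (SE) for Amy1, -1.94 ± 2.30 for Bpifa2, -2.13 ± 2.36 for Smr3a and -2.02 ± 2.37 for Chia1 on the log2 scale, with edgeR adjusted p from 0.733 to 0.757. For SJQYD against control they were 0.06 ± 2.20, -0.99 ± 2.25, -0.35 ± 2.27 and -0.01 ± 2.29 in the same order, with edgeR adjusted p from 0.830 to 0.999. The medians were -1.98 and -0.18, beside -0.03 and 0.04 over all genes. The comparisons share groups: model 3 enters both of the first 2.

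Single libraries set the direction of these values. Without model 3 the log2 fold change for model against control became -0.79 for Amy1, -1.80 for Bpifa2, -0.79 for Smr3a and -0.88 for Chia1. Without it, SJQYD against model became 0.85, 0.81, 0.43 and 0.86. Leaving out SJQYD 1 gave -5.88, -5.51, -5.54 and -5.04 for SJQYD against model, and -3.92, -4.57, -3.77 and -3.04 for SJQYD against control. Without control 2, model against control rose to 3.66, 2.48, 3.93 and 3.50, and SJQYD against control stood at 1.77, 0.55, 1.81 and 1.50. None of the 4 genes was called in any of these fits.

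Apart from Bpifa2 in control 4, the proportions among the 4 genes varied far less than their levels. Pearson correlation of log2 CPM over the 15 libraries was 0.996 between Smr3a and Chia1, 0.992 between Amy1 and Smr3a, and 0.990 between Amy1 and Chia1. The pairs with Bpifa2 stood at 0.942 with Amy1, 0.952 with Smr3a and 0.952 with Chia1. Spearman correlation ran from 0.954 to 1 over the 6 pairs. All values of a library share its depth and its scaling. Without the 2 libraries farthest from the median, Pearson correlation was between 0.917 and 0.994, and without model 3, SJQYD 1 and control 2 between 0.897 and 0.993. Without control 4, the 3 pairs with Bpifa2 stood at 0.991, 0.995 and 0.995.

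**Figure D2:**
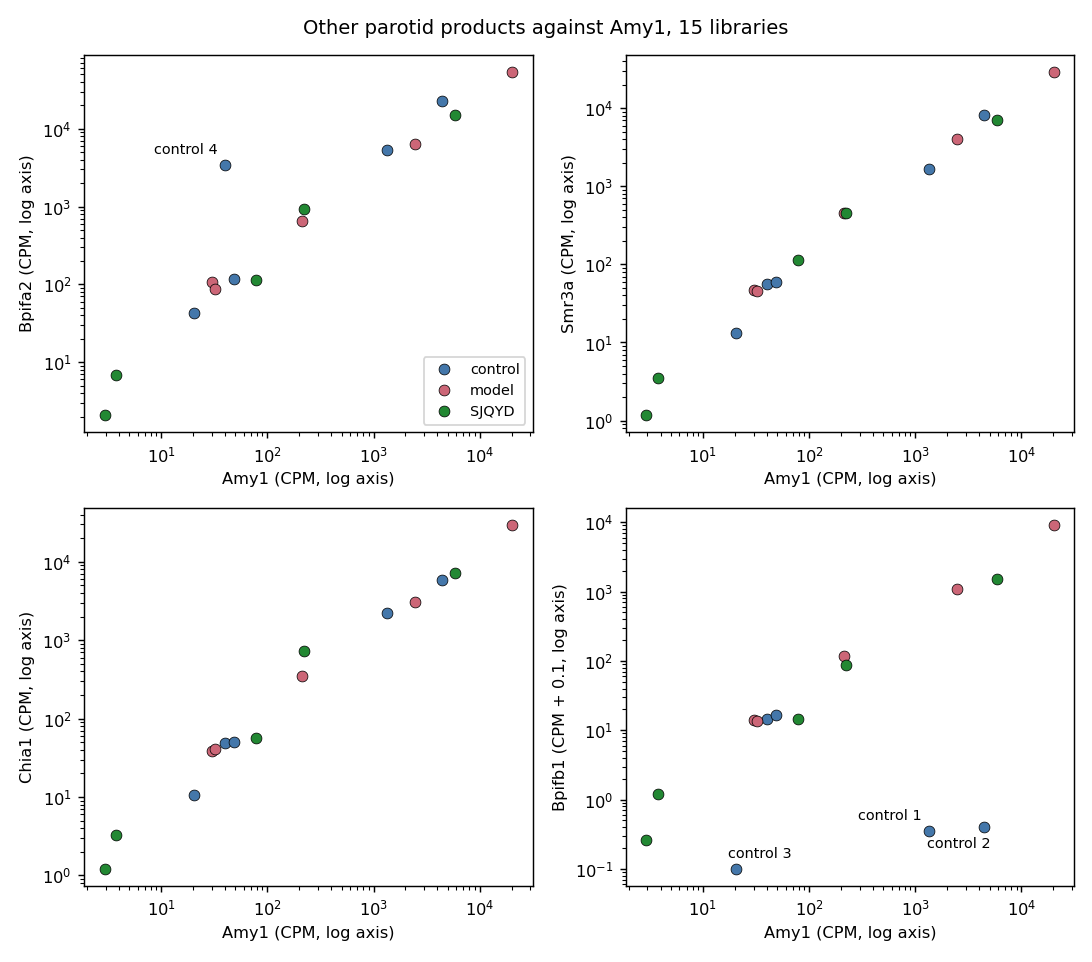
CPM of Bpifa2, Smr3a, Chia1 and Bpifb1 against CPM of Amy1 in 15 libraries (both axes log, 0.1 added to Bpifb1, points are libraries coloured by group). Smr3a and Chia1 follow Amy1 throughout, and control 4 lies far above the others for Bpifa2. For Bpifb1, controls 1, 2 and 3 lie far below the others relative to their Amy1. SJQYD 5, at 0.157 CPM of Bpifb1, is also low.

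Within a library the ratio of counts does not depend on library size. Smr3a to Chia1 ran only from 0.632 to 2.00 over all 15 libraries. Smr3a to Amy1 was 0.651 to 1.83 in control, 1.42 to 2.16 in model and 0.401 to 2.06 in SJQYD. Chia1 to Amy1 was 0.526 to 1.63 in control, 1.26 to 1.64 in model and 0.412 to 3.26 in SJQYD. The model group had the narrowest range of both ratios, although its Amy1 level ran from 30.0 to 20269.7 CPM.

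Bpifa2 to Amy1 ran from 2.63 to 3.60 in the 5 model libraries. In the SJQYD libraries it was 2.55, 1.45, 4.22, 1.80 and 0.709, and in the control libraries 3.91, 5.19, 2.11, 84.8 and 2.41. The 0.709 was in SJQYD 5, where Bpifa2 had 119 counts and Amy1 168. Between groups the mean log2 ratio differed by -1.07 for model against control, -0.68 for SJQYD against model and -1.75 for SJQYD against control. Without control 4 the first and last of these were -0.12 and -0.81. No ratio passed a two-sided exact permutation test over 252 arrangements of 5 libraries against 5, adjusted over 9 tests, with adjusted p from 0.339 to 0.881 and a smallest possible raw p of 0.00794.

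For SJQYD against model the mean log2 ratio to Amy1 was also lower by the point estimate for Smr3a, by -0.61, and for Chia1, by -0.44. With all libraries the exact permutation adjusted p was 0.339 for Bpifa2, 0.339 for Smr3a and 0.541 for Chia1. The 3 ratios share Amy1 as denominator, so their differences are not independent of each other. Without SJQYD 3, which had the highest 3 ratios of its group, the 3 differences were -0.99, -0.85 and -0.86, with exact permutation adjusted p of 0.0357, 0.0476 and 0.0357. Without SJQYD 5, which had the lowest 3 ratios, they were -0.34, -0.26 and -0.11, with exact permutation adjusted p of 0.512, 0.512 and 0.865. Leaving out the highest or the lowest library of a group fixes the direction of the shift beforehand. The p-values of these fits are therefore no evidence of a difference between the groups. No other library left out gave an adjusted p below 0.393 for these 3 ratios. SJQYD 3 is also the library with 1.01 CPM of Xist. The part of that in the ratios was not tested.

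**Figure D3:**
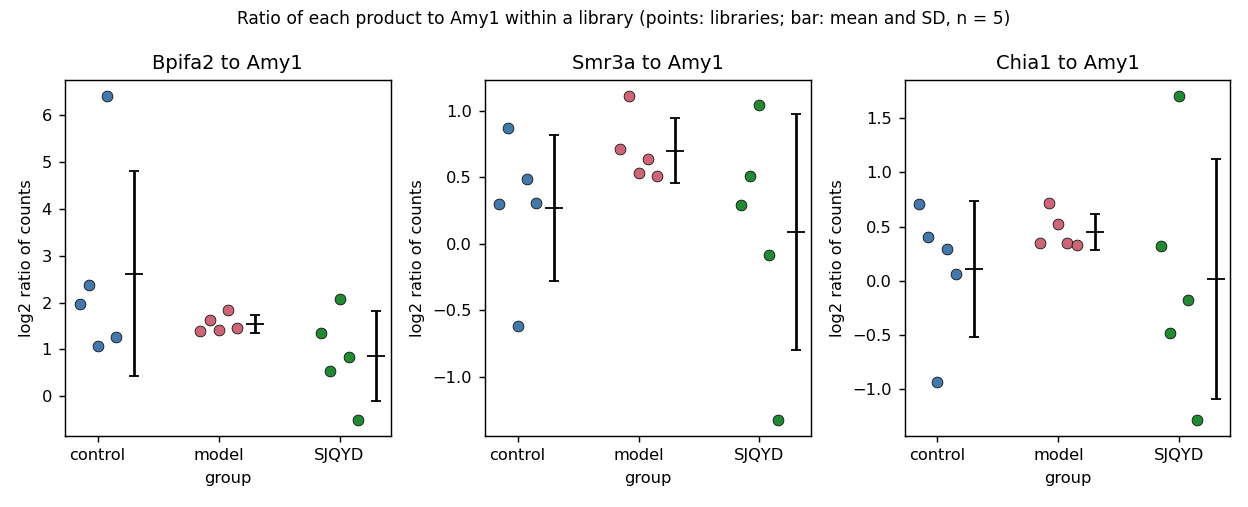
Log2 ratio of counts to Amy1 for Bpifa2, Smr3a and Chia1 in each library (points), with the mean and SD of each group of 5 (bars). The 5 model libraries lie close together in all 3 panels, the SJQYD libraries spread more widely, and control 4 stands alone at the top of the Bpifa2 panel, at a ratio of 84.8.

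Control 4 held 3389 CPM of Bpifa2 beside 40.0 CPM of Amy1, 55.9 of Smr3a and 49.0 of Chia1. It had the most sublingual gland products of any control library. Dcpp2, a demilune cell protein of the sublingual gland, stood there at 24113 CPM, and Muc19, its gel-forming mucin, at 4287 CPM. The 10 sublingual genes listed summed to 370.3 to 40227 CPM in control, 3455 to 32123 in model and 332 to 40218 in SJQYD. Model 4, with 32123 CPM in that list, had a Bpifa2 to Amy1 ratio of 3.60, and SJQYD 3, with 38290 CPM, had 4.22. These were the highest ratios of their groups. SJQYD 1, with 40218 CPM in the list but also 5821 CPM of Amy1, had 2.55. SJQYD 2, with 23170 CPM in the list and 78.7 CPM of Amy1, had 1.45. Model 1, with 18600 CPM in the list, had 2.63, the lowest ratio of its group. Bpifa2 itself stood at 108 CPM in model 4, beside 3389 CPM in control 4. The part of sublingual RNA in the Bpifa2 level of control 4 was not tested.

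On the FPKM scale, which divides by gene length and so allows levels of different genes to be compared, the order was Smr3a, Bpifa2, Chia1, Amy1 in 11 of 15 libraries. In model 3 the FPKM levels were 46955 for Smr3a, 27498 for Bpifa2, 15625 for Chia1 and 6019 for Amy1. In SJQYD 5 they were 1.44, 0.816, 0.494 and 0.672, the only library of the NOD/LTJ mice in which Amy1 was above Chia1. Bpifa2 came first in control 1, with 1354 FPKM beside 1337 for Smr3a, in control 3, with 12.9 beside 12.5, and in control 4, with 1275 beside 66.2.

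Among 7 amylase genes, Amy2a1 and Amy2b had no count, although both share sequence with copies that were counted. Amy2a2, Amy2a3 and Amy2a4, copies of pancreatic amylase, had counts only in model 1, at 57.3, 58.9 and 61.1 CPM, and in model 3, at 464, 470.0 and 479 CPM. Amy2a5 stood at 485 CPM in model 3, at 1.54 in SJQYD 2 and at 0 elsewhere. SJQYD 1, with 5821 CPM of Amy1, had no count for any of the Amy2 genes. Every stretch of 150 bases in the transcripts of Amy2a2, Amy2a3 and Amy2a4 is found in another copy, so the division of reads among them is uncertain, whereas no such stretch of Amy1 is found in another gene. Of 17 exocrine pancreas genes, among them Cpa1, Prss2 and Cela1, 8 had no count in any library, and the sum was at most 1.55 CPM except in control 2, where it was 5.98.

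Of the BPI fold family, 16 of 17 genes had a row in the table, 5 of these without a count in any library, and none of the 5 tested was called in any comparison. Bpifb1, a secreted relative at chr2:154190818-154220369, 174.7 kb beyond Bpifa2, divided the control libraries. In control libraries 1 to 5 it stood at 0.252, 0.306, 0, 14.5 and 16.3 CPM. In the model libraries it stood at 1075, 119, 8991, 14.2 and 13.4 CPM, and in the SJQYD libraries at 1515, 14.3, 85.9, 1.11 and 0.157 CPM. Per 100 counts of Amy1 this was 0.0187, 0.00694 and 0 in controls 1, 2 and 3, against 36.2 and 33.8 in controls 4 and 5. It was 41.8 to 56.0 in the model libraries and 5.36 to 38.5 in the SJQYD libraries. Control 2, the richest control library in the 4 genes, was thus among the poorest in Bpifb1. This split was singled out after the values were seen and has no test. Bpifa6 reached 4.45 CPM in model 3 and Lbp 17.8, and Pltp stood at 3.33 to 9.67 CPM. Correlations with the mean level of the 4 genes were 0.84 for Bpifa6, 0.70 for Lbp, 0.60 for Bpifb1 and -0.22 for Pltp.

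Among 9 chitinase family genes, none but Chia1 exceeded 38.9 CPM in any library. Chid1, a widely expressed member of that list, stood at 24.9 to 38.9 CPM in all 15, Ctbs at 0.512 to 2.08 and Chil1 at 0.227 to 1.88, and Chil3 and Chil4 had no count. In the cluster of casein-like and proline-rich genes around Smr3a, Csn3 and Odam followed the 4 genes, as described next, and Prol1, which lies in the same cluster and is an acinar product of the submandibular gland, did not, with a correlation of -0.62. Of the chitinase list 5 of 9 genes were tested, of that cluster 5 of 14, and of the amylase list 1 of 7, Amy1 itself. None of these tested genes was called in any comparison, beside 5.07%, 2.75% and 11.1% of all genes in the 3 comparisons. The other listed genes, among them all Amy2 genes, were not tested and so could not be called. About 34.4% of the 150-base stretches of Smr3a are shared with the predicted gene Gm28434, so some of its reads may be counted there.

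Of 11 other genes listed as parotid products, 4 are among the 12 genes most like Amy1, Bpifa2, Smr3a and Chia1 in pattern, and 7 are not. Cst10, a cystatin, which inhibits cysteine proteases, had a Pearson correlation of 0.988 with the mean standardised level of the 4 genes. Its levels were 426, 4104, 6.58, 20.2 and 19.1 CPM in control and 1392, 169, 11654, 18.8 and 19.0 CPM in model libraries 1 to 5. In the SJQYD libraries Cst10 stood at 2171, 33.9, 269.8, 2.60 and 1.87 CPM. Dnase1, a secreted nuclease, correlated at 0.980 and ran from 3.09 CPM in SJQYD 5 to 10614 in model 3. The proline-rich proteins Prpmp5 and Prb1 correlated at 0.956 and 0.913 and reached 73.7 and 58.3 CPM in model 3. Car6, a secreted carbonic anhydrase, at 12083 to 35748 CPM, Pip at 2621 to 24563 CPM, Klk1 at 2839.9 to 17617 CPM and Lpo, a peroxidase, at 187 to 516 CPM were present in every library, with correlations of -0.63, -0.49, -0.26 and -0.06. Lman1l, Prh1 and Prp2 had correlations of 0.04, 0.12 and -0.05. Pip and Lpo are also on the list of submandibular acinar products and Klk1 on that of granular duct products. None of the 11 was called in any comparison.

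**Figure D4:**
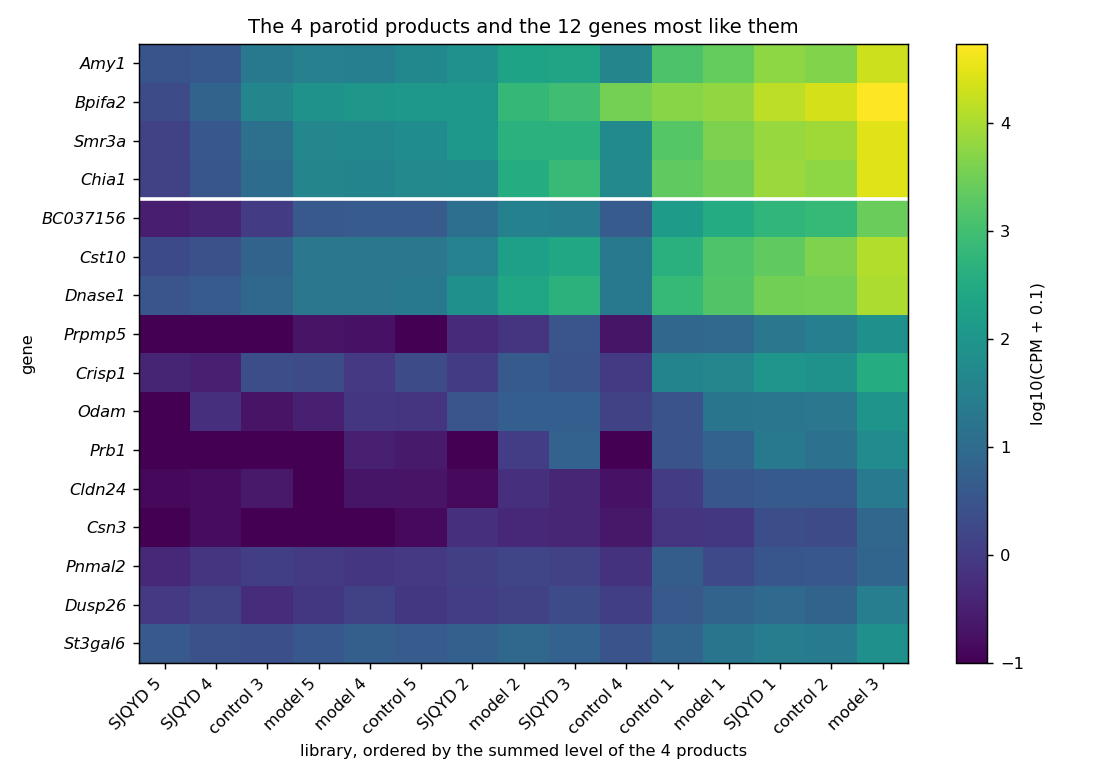
Levels of the 4 genes and of the 12 genes most alike in pattern as log10(CPM + 0.1) (colour), with genes in rows and the 15 libraries in columns, ordered by the summed level of the 4 genes. Every row is highest in model 3, and control 4 is high for Bpifa2 and low for Amy1, Smr3a, Chia1, Cst10 and Dnase1.

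The 12 genes most like the 4 in pattern, among 9889 named genes with at least 5 CPM in the highest library, had Pearson correlations from 0.884 to 0.992 with their mean standardised log2 level. The median over the 9889 genes was 0.01, and 4 genes reached 0.95, 10 reached 0.9 and 31 reached 0.8. BC037156, a gene known only by its cDNA name, came first at 0.992, with 2649 CPM in model 3 and 0.210 in SJQYD 5. Cst10, Dnase1 and Prpmp5 followed. Next were Crisp1, a cysteine-rich secretory protein also on the granular duct list, at 0.947, Odam, a protein first described in tooth-forming cells, at 0.931, and Prb1. Cldn24, a claudin, and Csn3, kappa-casein, both stood at 0.907, with only 23.1 and 7.51 CPM in the highest library. Pnmal2 at 0.902, Dusp26, a phosphatase, at 0.890 and St3gal6, which adds sialic acid to glycans, at 0.884 completed the list.

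Odam, BC037156 and Csn3 lie with Smr3a in 123.5 kb of chromosome 5, from chr5:87885029 to the end of Smr3a, and Prb1 and Prpmp5 lie 101.1 kb apart on chromosome 6. Of the 12 genes 10 had an entry in the promoter table, and 6 of these had TATAA in at least 1 window. The share of 17.5% over all promoters is for single windows, so it is not the matching share for genes with several windows. In Dnase1 the match lay 108 bases before its first start and 217 before its second. None of the 12 was called in any comparison, with edgeR adjusted p from 0.421 to 0.985. St3gal6 stood at 17.0 to 76.9 CPM in model 1, control 2, SJQYD 1 and model 3 and at 2.36 to 8.10 CPM in the other 11 libraries.

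Genes of other cell types and glands were set beside the 4 genes in the same libraries. The sum of 10 submandibular acinar products, led by Mucl2, Prol1, Pip and Aqp5, ran from 99783 CPM in SJQYD 1 to 976093 in control 1, and its Spearman correlation with the sum of the 4 genes was -0.54. Sublingual products had 0.46, granular duct products, at 5756 to 39294 CPM, -0.26 and lacrimal gland products, at most 682 CPM, 0.27. B cell genes summed to 0.271 to 103 CPM with a correlation of 0.50, T cell genes to 4.61 to 177 CPM with 0.38, and lymph node stroma genes to 6.74 to 211 CPM with 0.32. Adipocyte genes, at 8.16 to 466 CPM, had -0.34, and skeletal muscle genes, at 12.4 to 40.6 CPM, had 0.17. The part of these tissues in the levels of the 4 genes was not tested.

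Of the 106 genes on the 15 lists that were tested, 6 were called for model against control (5.66%, beside 5.07% of all genes), none by edgeR for SJQYD against model (beside 2.75%) and 5 for SJQYD against control (4.72%, beside 11.1%). An unadjusted edgeR p under 0.05 was reached by 23, 5 and 20 of the 106, beside 3968, 2936 and 4828 of all 18136 genes tested. For model against control Agr2, listed with the sublingual products, fell by 4.79 ± 0.33 (SE) on the log2 scale, with an edgeR adjusted p of 1.88e-07. Of 8 genes tested on that list, 1 was called. The acinar genes Bhlha15 and Prlr fell by 0.57 ± 0.15 and 0.76 ± 0.18. Of 8 genes tested on the muscle list, 3 were called, all as higher. Ryr1 and Eno3 rose by 2.74 ± 0.73 and 0.88 ± 0.24. Ryr1 stood at only 0 to 0.144 CPM in the control and 0.2145 to 0.753 CPM in the model libraries. Tnnt3 had no count in any control library and stood at 0.0990 to 0.394 CPM in the model libraries. Ckm, a muscle gene that was tested and not called, stood at 2.07 to 3.49 CPM over the 15 libraries. For SJQYD against control Agr2, Prlr, Tnnt3, Ryr1 and Eno3 were called in the same directions. Agr2 followed the groups and not the 4 genes: it stood at 9.85 to 27.8 CPM in the control libraries and at 0.335 to 0.894 CPM in the others, with a correlation of -0.01 with the 4 genes. Nor did it follow the sublingual list: its highest level was in control 3, where that list summed to only 370.3 CPM.

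**Figure D5:**
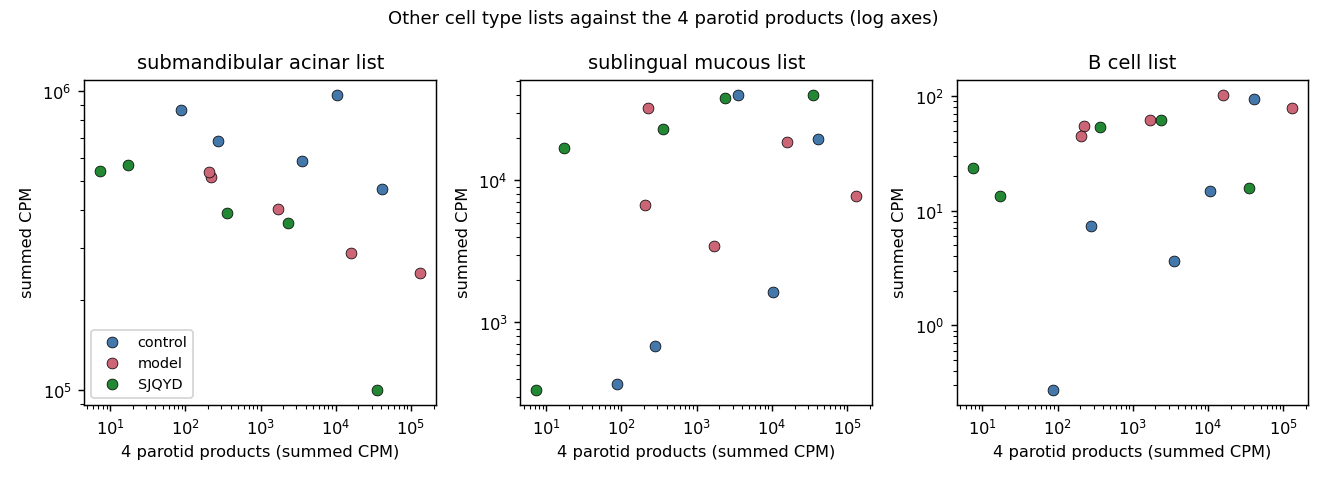
Summed CPM of the submandibular acinar, sublingual and B cell lists against the summed CPM of the 4 genes in the 15 libraries (both axes log, colour by group). None of the 3 sums follows the 4 genes closely: the sublingual and B cell sums have Spearman correlations of 0.46 and 0.50, and the acinar sum has -0.54.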

How the data were processed

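Submandibular gland RNA was measured in 15 libraries, 5 each for control, model and SJQYD. Per the labels' protocols, poly(A) RNA went into strand-specific libraries whose adapters carried molecular identifiers, and read pairs were sequenced. The authors deposited whole-number counts per gene for 55401 genes and a table of FPKM for the 32479 genes with a count. Per the submitters' processing notes, the tools were HISAT2 2.0.4, StringTie 1.3.4d, cutadapt 1.9, edgeR, DESeq2 and UMI-tools, with no role or order, and the build mm9. Gene positions equal those of GRCm38 (GENCODE M21) for 28337 of 32385 genes found there (87.5%), including 3 of the 4 described. Amy1 differs in its higher coordinate, 113577830 in the deposited table, as given here, and 113606699 in GENCODE. As Amy1 is on the minus strand, this is its upstream side, and GENCODE places it beyond both printed Amy1 windows. In the deposited counts the value 4 occurs 14040 times, against 8483 for 3 and 4460 for 5, so totals are not numbers of molecules, and the notes do not say whether duplicate reads were removed.

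Counts were fitted in R 4.3.3 with edgeR 4.0.16 (TMM, filterByExpr, robust quasi-likelihood, 1 mean per group, all 15 libraries), and the F test was adjusted by the Benjamini-Hochberg method over 18136 genes, with calls under 0.05. The test was checked on simulated data with 200 changed genes. Ratios had 0.5 added to each count for the test. The least different pair of libraries of 1 group, SJQYD 2 and SJQYD 4, differed by a chi-square of 74.0 for each gene, so no library repeated another. The 4 genes, the 15 gene lists, the tests and the rule for naming genes were chosen with earlier results of these data known. The rule named the 4 genes, the 12 genes most alike (log2 CPM with a prior count of 2, leaving out predicted genes, pseudogenes and receptor segments), up to 4 leading genes of a list, and detected family members. Alternatives were library totals alone, other normalizations and filters, DESeq2 1.42.0, limma 3.58.1 on log2(FPKM + 1) and log2(FPKM + 0.1), a replicate block, and leaving out libraries.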

Additional observations from a re-analysis of the deposited data

Results flagged for a closer look

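Single libraries lay far above the other 4 of their group, by the gap to the nearest library over the whole range of the group. In model 3 this held for all 4 genes: Amy1 at 20269.7 CPM, Bpifa2 at 53990.2, Smr3a at 29323 and Chia1 at 29060.0. In SJQYD 1 it held for all 4 as well: Amy1 at 5821 CPM, Bpifa2 at 14864, Smr3a at 7139.9 and Chia1 at 7274. In control 2 it held for Bpifa2 at 22868 CPM and Smr3a at 8076 CPM. The Bpifa2 to Amy1 ratio of 84.8 in control 4 stood apart from the next highest of 5.19. In all, 11 values were marked over 21 sets of 5 values, where chance marks about 1 in 20 sets of normally distributed values. CPM within these groups are far from normal, with each SD above its mean, and the 4 genes' values in a library are not independent, so the marks are a description and not a test.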

How the results depend on the processing

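No gene of the 4 was called in any of 25 alternatives per comparison, and the lowest adjusted p was 0.253. Directions were less stable. Leaving out 1 library, the log2 change for model against control ranged from -0.79 to 3.66 for Amy1, -1.80 to 2.48 for Bpifa2, -0.79 to 3.93 for Smr3a and -0.88 to 3.50 for Chia1. For SJQYD against model the ranges were -5.88 to 0.85, -5.51 to 0.81, -5.54 to 0.43 and -5.04 to 0.86, and for SJQYD against control -3.92 to 1.77, -4.57 to 0.55, -3.77 to 1.81 and -3.04 to 1.50. For SJQYD against control, library totals alone gave 0.58 for Smr3a and 0.98 for Chia1, no filter gave 0.017 for Chia1, and limma gave -0.61 (FPKM + 1) and -0.93 (FPKM + 0.1) for Amy1. Library totals alone moved the median over all genes from 0.03, -0.03 and 0.04 to 0.52, 0.08 and 0.63 in the 3 comparisons in the order given. Without model 3, SJQYD 1 and control 2, Bpifa2 stood at -0.30 for model against control and Amy1 at -2.24 for SJQYD against control. The cause was not tested.

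Leaving out 1 library, the log2 ratio to Amy1 for SJQYD against model ranged from -0.99 to -0.34 for Bpifa2, -0.85 to -0.26 for Smr3a and -0.86 to -0.11 for Chia1, and for SJQYD against control from -2.14 to -0.81 for Bpifa2, -0.42 to 0.17 for Smr3a and -0.51 to 0.23 for Chia1. For model against control it ranged from -1.46 to -0.12 for Bpifa2, 0.21 to 0.58 for Smr3a and 0.085 to 0.49 for Chia1. With library totals alone the sum of the 4 genes in SJQYD 1 was 65087 CPM. Replicate numbers showed little pairing of the libraries: 2 of 15 same-numbered pairs correlated over 0.1, and 4 of 15 libraries correlated best with their own number. The 15 pairs ran from -0.23 to 0.16. Both pairs over 0.1 were of number 4, at 0.13 and 0.16, and its remaining pair stood at 0.08. Whether the numbers mark a true pairing was not tested. With the replicate block, model against control stood at -0.18 for Amy1, -2.19 for Bpifa2, -0.12 for Smr3a and -0.27 for Chia1, SJQYD against model at -2.93, -3.75, -3.57 and -3.32 and SJQYD against control at -3.11, -5.94, -3.69 and -3.60 in the same order, and 896, 401 and 1799 genes were called in the 3 comparisons, beside 920, 498 and 2017. Over all alternatives the counts of genes called ran from 354 to 1958, 43 to 1058 and 1240 to 4679. Depth did not limit the 4 genes, whose lowest count was 67.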
